A study of Mus musculus with 714 samples.

Results

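Wfdc2 and Wfdc18 are 2 members of the whey acidic protein (WAP) family, read here as 2 of the 12479 gene rows of a single-cell count table from the mouse uterus. They were picked by name, as a pair whose levels move in opposite directions with age, so that opposition is described and not tested. The table holds 714 cells of ICR mice that had been sorted for the surface protein CD326 (EpCAM), an adhesion molecule of epithelia, and prepared with CEL-seq, a method that counts the 3′ ends of transcripts. The cells come from postnatal days (pnd) 0, 7, 14, 28 and 56 of mice without a stated treatment or genetic change. They form blocks of 96 consecutive cell numbers in the titles, called runs here, and each run holds 1 age. Runs 1 and 2, of pnd0, kept 88 and 85 cells. Runs 5, 6 and 10, of pnd7, kept 88, 87 and 92, and runs 3, 4 and 7, of pnd14, kept 70, 24 and 79. Run 9 holds the 56 cells of pnd28 and run 8 the 45 of pnd56. What a block stands for is not stated, and age and run cannot be told apart. Animals, litters and pooling are not named either, so each age is 1 sample made of many cells. No difference between ages has a replicate check, no p-value is given, and every interval is a 95% interval of counting error only.

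WAP proteins are small and mostly secreted, and they carry a compact cysteine-rich fold that is held together by disulfide bonds. Several of them inhibit proteases, and some act against microbes at mucosal surfaces. Wfdc2, whose human counterpart is known as HE4, is made by the epithelia of the reproductive tract and the airways. Wfdc18, also called Expi or WDNM1, was described as a secreted proteinase inhibitor of the mammary gland.

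In GENCODE M21 (GRCm38), Wfdc2 (ENSMUSG00000017723.11) spans chr2:164562413-164568510 on the plus strand, in a cluster with Spint3, Wfdc6a and Eppin. Wfdc18 (ENSMUSG00000000983.13) spans chr11:83709015-83711348 on the plus strand, with its relative Wfdc17 upstream. Neither gene overlaps another gene in that annotation, and 0 of the 1182 and 1269 stretches of 50 bases in their transcripts occur in a transcript of another gene. The authors' build is named as mm9, so these positions locate the genes but do not belong to the table. The 100 bases in front of the first start that GENCODE or RefSeq gives to a coding transcript are printed to show the 2 genes side by side, from RefSeq sequence of GRCm38.p6, 5′ to 3′, with any TATAAA in capitals. For Wfdc2 this stretch lies inside the gene's span, as a transcript not typed as protein-coding starts further upstream. Whether the stretch is exon or intron of that transcript was not tested.

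Wfdc2, chr2:164562479-164562578, plus strand: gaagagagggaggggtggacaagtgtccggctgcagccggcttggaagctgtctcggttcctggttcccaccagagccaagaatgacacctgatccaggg
Wfdc18, chr11:83708904-83709003, plus strand: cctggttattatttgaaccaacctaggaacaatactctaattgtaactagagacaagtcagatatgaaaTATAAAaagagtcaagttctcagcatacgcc

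The stretch before the coding transcripts of Wfdc2 is 61% G and C and that of Wfdc18 is 35%, against a median of 55% over 27025 mouse promoters of the same length. TATAAA, searched on both strands, occurs 1 time before Wfdc18, with its first base 31 bases before the start, and 0 times before Wfdc2. Of all those promoters, 5.95% hold it on either strand. The RNA counts do not bear on what these letters do.

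Most cells of each age had a count of Krt18, a keratin of simple epithelia that is not the protein sorted for. It had no count in 2 cells at pnd0, 3 at pnd7 and 14 at pnd14. The same held for 12 of the 56 cells at pnd28 and 4 of the 45 at pnd56. The ages sum to 582615, 732957, 354047, 96248 and 81894 counts in order, with medians of 3037, 2492, 1782, 1600 and 1670 counts per cell. Of 9 listed smooth muscle genes 5 have a row, and their summed share of counts was 0.00687%, 0.0188%, 0.283%, 0.130% and 0.0110% in the same order. Stromal genes, 8 with a row, held 0.00395%, 0.0126%, 0.0805%, 0.338% and 0.292%, and haemoglobin and related erythroid genes, 4 with a row, held 1.35%, 0.0311%, 0.0263%, 0.0166% and 0%. Immune genes reached 0.0426% at pnd28 and endothelial genes 0.0158% at pnd14. The part of other cells in the levels given here was tested for smooth muscle markers and Krt18 alone.

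Wfdc2 was present in nearly every cell at birth and lay lower at each later age, with a higher value at pnd28 than at pnd14. Its level, as counts per 1000000 counts of the age (CPM), was 11333 [11062, 11610] at pnd0, 9464 [9243, 9690] at pnd7 and 6296 [6037, 6563] at pnd14. It was 8759 [8177, 9370] at pnd28 and 4994 [4522, 5503] at pnd56. In order of level the ages stand pnd0, pnd7, pnd28, pnd14, pnd56. At birth 1.13% of all counts, 6603 in number, were of this gene, and at pnd56 0.499% were. As a log2 ratio, pnd56 lay at −1.18 [−1.33, −1.04] against pnd0, a level 2.27-fold lower.

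The runs of 1 age did not give the same level of Wfdc2, and their spread exceeded the counting error. Runs 1 and 2 of pnd0 had 10349 and 12346 CPM. Runs 5, 6 and 10 of pnd7 had 9818, 9979 and 8789 CPM, and each of them lay below both pnd0 runs. At pnd14, runs 3 and 4 had 5283 and 5174 CPM and run 7 had 7665, so all 3 lay below every pnd7 run and below the single pnd28 run. The pnd28 run, at 8759, lay just below the lowest pnd7 run, and the pnd56 interval reached the levels of runs 3 and 4. The runs of pnd0 and pnd7, and those of pnd28 and pnd14, did not overlap. The gaps between them were smaller than the spread of runs within pnd0 and within pnd14. So no neighbours in the order of level differ beyond the spread of runs, and pnd28 and pnd56 have 1 run each.

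Wfdc18 took a different course, from no count at birth to its highest levels at pnd14 and pnd56. It had 0 counts at pnd0, which, taking 3 as the limit for a count of 0, allows up to 5.15 CPM and up to 1.73% of cells with a count. It stood at 42.3 CPM [28.7, 60.03] at pnd7 from 31 counts, and at 392.6 CPM [330.1, 463.6] at pnd14 from 19, 45 and 75 counts in its 3 runs. At pnd28 it was at 93.5 CPM [42.8, 177.5] from 9 counts, and at pnd56 at 354.1 CPM [237.2, 508.6] from 29 counts. The intervals of pnd14 and pnd56 overlap, and so do those of pnd7 and pnd28. With every cell thinned to 1500 counts the order of the highest ages turned, at 371.7 CPM [285.6, 475.5] for pnd14 and 506.7 [305.05, 791.2] for pnd56, so the age of the highest level is not settled.

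Among runs, both pnd0 runs were at 0. The 3 pnd7 runs, 5, 6 and 10, lay close together at 36.96, 53.57 and 38.72 CPM. At pnd14 the runs were far apart, with 140.6 CPM [84.6, 219.5] in run 3, 688.9 [502.5, 921.8] in run 4 and 488.4 [384.2, 612.2] in run 7. All 3 pnd14 runs lay above every pnd7 run. Run 3, however, lay within the interval of the pnd28 run, and the pnd56 run lay between the lowest and the highest pnd14 run.

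**Figure D1:**
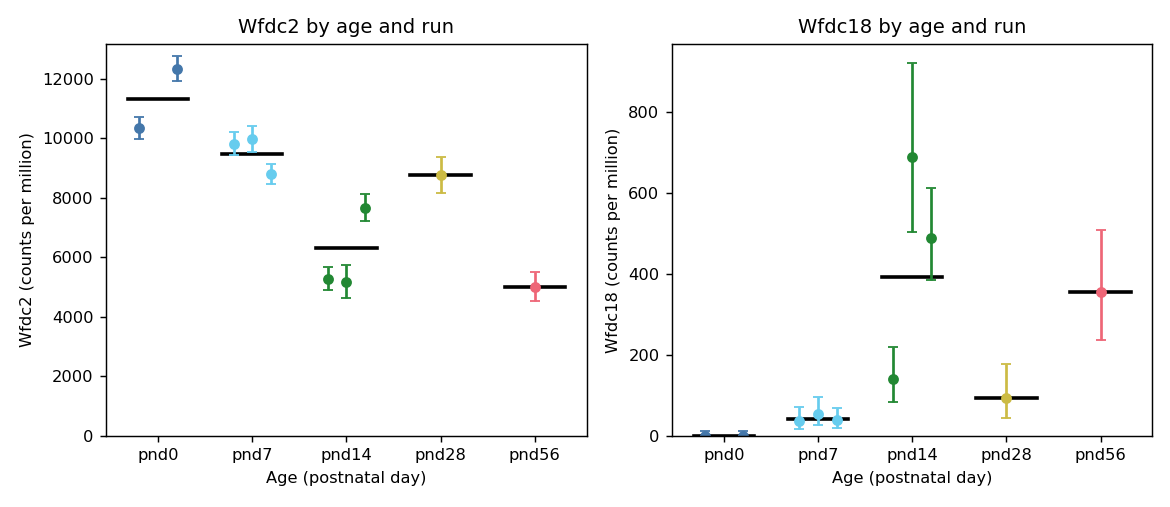
Level of Wfdc2 (left) and Wfdc18 (right) in counts per 1000000 (CPM) against age; each point is 1 run with its exact 95% Poisson interval, and each black line is the age as a whole. Wfdc2 runs from 11333 CPM at pnd0 to 4994 at pnd56, while Wfdc18 runs from 0 to 354.1.

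At each of the 4 steps between successive ages the genes differed in opposite directions. From pnd0 to pnd7 the log2 ratio of Wfdc2 was −0.26 [−0.31, −0.21]. That of Wfdc18 was at least 3.04, or at least 8.21-fold higher, taking 3 counts over pnd0 as the floor. The exact counting interval of this ratio starts lower, at 2.65. With 1 of the pnd0 runs left out, which raises that floor, the bound was 2.02 or 2.06. A log2 ratio of 1 or more, the size used here to mark a gene, was reached by Wfdc18 at full depth, as by 4.94% of the 5953 genes with at least 20 counts over both ages, while 7.61% were 2-fold lower. With cells thinned to 1500 counts the bound of Wfdc18 was 0.95, short of that mark. Wfdc2 stayed within 2-fold, and the median of all these genes was −0.03.

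From pnd7 to pnd14 Wfdc2 was at −0.59 [−0.66, −0.52] and Wfdc18 at 3.21 [2.64, 3.83], which is 9.28-fold higher. Wfdc18 thus passed 2-fold upward, as 10.7% of 5553 genes did (14.3% downward), and the median of all genes was −0.10. Without the pnd14 cells that carry 3 or more counts of Ovgp1, a choice made after seeing the data, the ratio of Wfdc18 was 2.23.

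From pnd14 to pnd28 the directions turned, with Wfdc2 at 0.48 [0.36, 0.59] and Wfdc18 at −2.07 [−3.23, −1.10]. Wfdc18 passed 2-fold downward, as 24% of 3785 genes did (11.9% upward), and the median of all genes was −0.23. Its fall was −1.09 without the Ovgp1 cells of pnd14 and −3.05 in cells with a Krt18 count only, both added after seeing the data. The rise of Wfdc2 was 0.20 without the cells that carry 5 or more smooth muscle counts and 0.61 in cells with a Krt18 count.

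From pnd28 to pnd56 Wfdc2 was at −0.81 [−0.98, −0.64] and Wfdc18 at 1.92 [0.80, 3.18], from 9 and 29 counts. Wfdc18 passed 2-fold upward again, as 14.8% of 1797 genes did (16.5% downward), and its ratio was 2.90 in cells with a Krt18 count. Over the whole span, pnd56 against pnd0, Wfdc18 was at least 68.8-fold higher, a bound of 6.10 on the log2 scale that was 5.08 or 5.12 without 1 pnd0 run. The exact counting interval of that ratio starts at 5.71. In that comparison 10.3% of 4725 genes passed 2-fold upward and 34.9%, Wfdc2 among them, passed it downward. The median gene there was at −0.45, and median-of-ratios scaling in place of total counts gives Wfdc2 a ratio of −0.997.

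The pair can also be set against each other without any scaling, since the total of an age cancels out. Per 1000 Wfdc2 counts there were 0 Wfdc18 counts at pnd0, 4.47 at pnd7, 62.4 at pnd14, 10.7 at pnd28 and 70.9 at pnd56. The difference of their log2 ratios, Wfdc18 minus Wfdc2, was 3.80 [3.24, 4.37] from pnd7 to pnd14. It was −2.55 [−3.53, −1.57] from pnd14 to pnd28 and 2.73 [1.64, 3.82] from pnd28 to pnd56. Over the 10 runs the levels of the genes, as log2(CPM + 10), had a Pearson r of −0.83. The labels do not say whether runs of 1 age share a library or an animal. The runs' median depth had r of 0.59 with Wfdc2 and −0.72 with Wfdc18, so its part in the pattern was not tested.

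Cell by cell, Wfdc2 was counted in 99.4% of cells at pnd0, 100% at pnd7, 94.2% at pnd14, 98.2% at pnd28 and 84.4% at pnd56. With every cell thinned to 1500 counts, which left out 9, 13, 60, 23 and 20 shallower cells, the shares were 99.4%, 100%, 95.6%, 96.97% and 84%. The share was also high in cells with smooth muscle counts or with no Krt18 count. At pnd14, 35 of the 40 cells with 5 or more smooth muscle counts had Wfdc2, and 12 of the 14 cells with no Krt18 count. Their median depths were 1776 and 1383 counts. Many of the cells with smooth muscle counts also had a Krt18 count, so they are not known to lack epithelial RNA. What gave the high share in these groups was not tested. The shares of each age are therefore not read as shares of cells that express Wfdc2.

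The level varied widely between cells. Per cell, Wfdc2 ranged from 0 to 32306 CPM at pnd0 with a median of 10443, and from 2389 to 24326 at pnd7 with a median of 9047. At pnd14 it ranged from 0 to 28750 with a median of 5714, at pnd28 from 0 to 31975 with a median of 5632, and at pnd56 from 0 to 17637 with a median of 5062. The medians of pnd14 and pnd28 were nearly the same, although the pooled level of pnd28 was higher. The upper quartile, 9179 CPM at pnd14 and 14335 at pnd28, is where these ages differed. The lower quartile was 2227 and 2657.

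**Figure D2:**
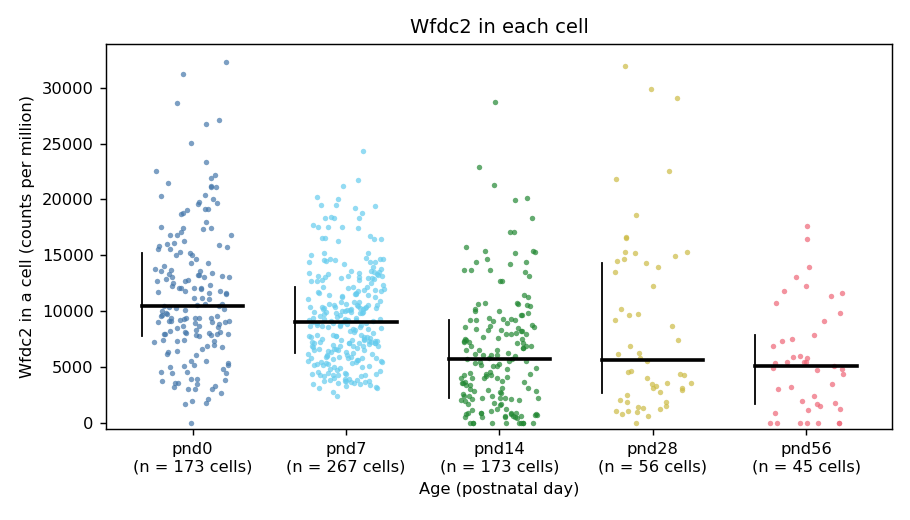
Wfdc2 in each cell in counts per 1000000 (CPM) against age; each point is 1 cell, the thick line is the median and the thin line spans the quartiles. The medians are 10443, 9047, 5714, 5632 and 5062 CPM, and the pnd28 cells spread over the widest quartile range.

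Measured as variance over mean, the spread between cells was lowest at pnd7 and highest at pnd28. This order need not hold for other measures, since the mean counts differed, at 16.9, 14.6, 9.91, 13.97 and 7.4 over the ages. At 1500 counts per cell the variance of Wfdc2 counts was 4.97 times their mean at pnd0 and 3.42 times at pnd7. It was 6.68 times at pnd14, 11.3 times at pnd28 and 7.65 times at pnd56. For the 20 genes nearest to Wfdc2 in mean count, the median of this ratio was 2.83, 2.86, 4.07, 3.75 and 2.64. Wfdc2 exceeded 18, 13, 14, 17 and 17 of its 20 neighbours over the ages. Some of these rows have nearly equal counts and may hold the same reads, such as Gapdh and Iffo1 with 4102 and 4097 at pnd0. The neighbours are thus not 20 separate genes.

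Cells grouped by other marker genes had different Wfdc2 levels within an age. At pnd14 the 40 cells with smooth muscle markers stood at 3673 CPM [3283, 4097] against 7159 [6841, 7488] in the other cells, at median depths of 1776 and 1792 counts. The cut at 5 counts is a point on a range, with 4 pnd14 cells at 3 or 4 counts and 9 at 5 to 7. At pnd28 the 8 such cells stood at 11689 CPM [9978, 13608], and the other cells at 8251 [7642, 8897]. Of these 8 cells, 4 lie at 5 to 7 counts, and without the 3 at exactly 5 the level was 8349 [6567, 10466], an alternative added after seeing the data. The same step left pnd14 at 3774 [3348, 4238]. In the 12 pnd28 cells with no Krt18 count Wfdc2 was at 3289 CPM [2504, 4243], against 10011 [9323, 10737] in the 44 others. At pnd14 the same groups stood at 2673 [2080, 3383] and 6581 [6306, 6864].

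Wfdc2 also differed with Ltf, the gene of lactoferrin, a secreted iron-binding protein induced by oestrogen in the uterus. At pnd28 the 35 cells with an Ltf count had Wfdc2 at 10970 CPM [10157, 11830] and the 21 others at 4855 [4151, 5645]. At pnd56 the 22 cells with Ltf stood at 5885 [5158, 6686] and the 23 without at 4140 [3546, 4804]. At the 3 earlier ages the order was the reverse. Wfdc2 stood at 5912 [4943, 7016] against 11548 in the 5 pnd0 cells with Ltf, at 6372 [5402, 7465] against 9569 in the 8 pnd7 cells, and at 4005 [3563, 4488] against 6903 in the 29 pnd14 cells. At birth the 8 cells with 3 or more counts of Ovgp1, the oviduct glycoprotein gene, had Wfdc2 at 4768 CPM [4047, 5581] against 11721 [11437, 12011] in the rest, while the 5 such cells of pnd7 stood above the rest, at 12476 [10834, 14296] against 9395. These groups were set with the counts in view, and cells of an age are not replicates.

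Wfdc18, in contrast, was found in few cells at any age, and its counts were concentrated in them. It was counted in 10 pnd7, 22 pnd14, 2 pnd28 and 8 pnd56 cells, or 3.75% [1.81, 6.78], 12.7% [8.14, 18.6], 3.57% [0.44, 12.3] and 17.8% [8.002, 32.1] of each age. At 1500 counts per cell the shares were 1.57%, 15.04%, 0% and 28%, and 0 of 33 pnd28 cells allows up to 10.6% by the exact interval. Among the pnd14 cells with smooth muscle markers 6 of 40 had a Wfdc18 count, a share of 15% against 12.03% of the others. Among pnd14 cells with no Krt18 count 0 of 14 had one. The pnd14 share is thus not read as the share of epithelial cells that express the gene.

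At pnd7 a single cell held 9 of the 31 Wfdc18 counts and 5 cells held 25, while 4 cells had just 1 count. At pnd14 the 22 positive cells had between 1 and 24 counts each, 19 had 2 or more, and the 5 highest together held 75 counts. At pnd28 the 2 cells had 5 and 4 counts. At pnd56 the 8 cells had 2 to 6 counts each. At 3 ages the cells with a count were deeper than the rest, with medians of 3786 against 2485 counts at pnd7, 2221 against 1753 at pnd14 and 2171 against 1488 at pnd56. The 2 cells of pnd28 were shallower, at 1312 against 1605.

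At pnd14 the Wfdc18 counts lay largely in cells that also carried Ovgp1 or Ltf. Of the 22 cells, 18 had an Ovgp1 count and 12 an Ltf count, where 58 and 29 cells of that age did in all. The 25 cells with 3 or more Ovgp1 counts stood at 1391 CPM of Wfdc18 [1103, 1732], the rest at 198.96 [151.5, 256.6], and the cells with no Ovgp1 count at 30.997 [12.5, 63.9]. The median depths of the first 2 groups were 1792 and 1782 counts. Most Ovgp1 cells nevertheless lacked Wfdc18, as 17 of the 25 had no count of it, and 2 cells held 40 of the 80 counts in this group. Ciliated cell markers, 5 with a row, were also at their highest share at pnd14, at 0.0220% of counts, and their part was not tested. The highest cell had 24 counts of Wfdc18, 39 of Ovgp1 and 3 of Wfdc2. The deepest pnd14 cell, with 7103 counts, had 4 of Wfdc18, 3 of Ovgp1 and 9 smooth muscle counts, and doublets were not called.

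The higher Wfdc18 level in Ovgp1 cells held in runs 4 and 7 and not clearly in run 3. Wfdc18 stood at 1492 CPM [911.4, 2304] in the 4 Ovgp1 cells of run 4 against 481.5 [311.6, 710.8] in the other 20, and at 1674 [1271, 2165] in the 16 of run 7 against 142.9 [83.3, 228.9] in the other 63. In run 3 the 5 Ovgp1 cells had 2 counts, or 211.4 CPM [25.6, 763.8], against 135.2 [78.8, 216.5] in the other 65. Wfdc2 went the other way in these groups, at 5165 CPM [4594, 5787] in Ovgp1 cells and 6515 [6228, 6812] in the rest. In run 3 it was 4229 CPM [3021, 5758] against 5362 [4965, 5783], intervals that overlap, and 1 cell held 30 of the 40 counts of the Ovgp1 cells. In run 4 it was 3283 [2385, 4407] against 5662 [5034, 6348], and in run 7 6149 [5351, 7033] against 8106 [7602, 8634].

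**Figure D3:**
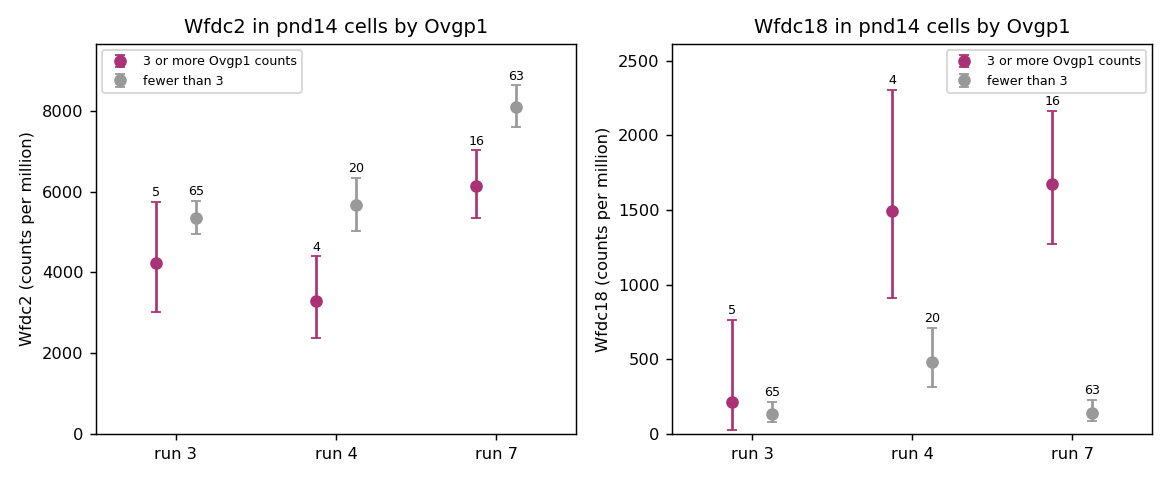
Wfdc2 (left) and Wfdc18 (right) in counts per 1000000 (CPM) in pnd14 cells of runs 3, 4 and 7, split at 3 counts of Ovgp1, with exact 95% Poisson intervals and the number of cells above each. In every run Wfdc2 is lower in the Ovgp1 cells, with overlapping intervals in run 3. In runs 4 and 7 Wfdc18 is higher in them, at 1492 and 1674 CPM.

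The overlap with Ovgp1 was seen at pnd14 alone, and at pnd28 and pnd56 it could not recur. None of the 10 pnd7 cells with Wfdc18 had an Ovgp1 count, while 14 pnd7 cells did, and pnd28 and pnd56 had 0 Ovgp1 counts. Ltf was counted in 0 of the 10 pnd7 cells, in both pnd28 cells and in 5 of the 8 pnd56 cells with Wfdc18. In all, 8 pnd7, 35 pnd28 and 22 pnd56 cells had an Ltf count. At pnd56 Wfdc18 stood at 448.9 CPM [266.02, 709.4] in cells with Ltf and 263.2 [131.4, 470.95] in those without, intervals that overlap.

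Because Wfdc2 was counted in nearly every cell, joint detection follows the number of Wfdc18 cells and does not bear on whether the genes avoid each other. Both were counted in 10 cells at pnd7, 20 at pnd14, 2 at pnd28 and 7 at pnd56, where the product of the 2 shares gives 10, 20.7, 1.964 and 6.76. Wfdc18 without Wfdc2 was seen in 2 pnd14 cells and 1 pnd56 cell. In cells with Wfdc18 the level of Wfdc2 was 11709 CPM [10632, 12866] at pnd7, above the 9345 of the other cells. At pnd14 it was 4327 [3812, 4892], below 6689. In the 2 pnd28 cells it was 3812 [1828, 7011], below 8897, and at pnd56 4641 [3702, 5745] against 5095. Across cells the Pearson r of the pair, on log2(1 + counts per 1500), was 0.08 at pnd7, −0.13 at pnd14, −0.07 at pnd28 and 0.10 at pnd56. These are weak values in sparse counts.

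**Figure D4:**
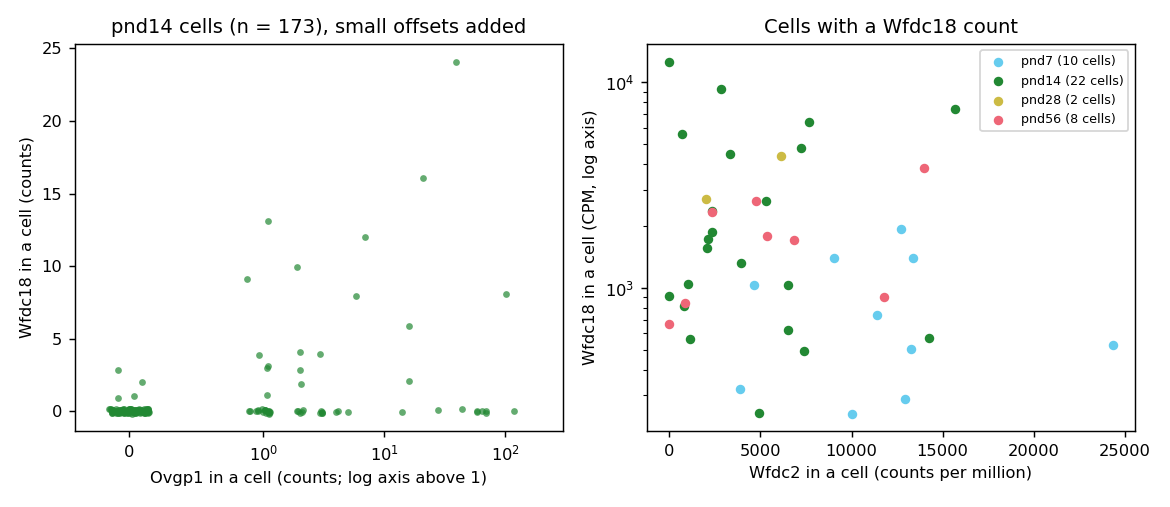
Left, Wfdc18 against Ovgp1 counts in all pnd14 cells (log axis above 1, small offsets added); right, Wfdc18 (log axis) against Wfdc2 in counts per 1000000 (CPM) in the 42 cells with a Wfdc18 count. On the left 18 of the 22 positive cells lie above 0 on the Ovgp1 axis; on the right positive cells of each age spread over a wide range of Wfdc2.

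Few other WAP genes were counted at all. Of 25 family names listed, 12 have a row, and 8 of these have 13 counts or fewer in all 714 cells. Slpi, a secreted inhibitor of leukocyte proteases, had 4 counts, Wap itself had 1, and Wfdc17, the neighbour of Wfdc18, had 6, all at pnd28. Wfdc1 had 40 counts, with 11, 5, 17, 3 and 4 over the ages. Wfdc10 had 39, with 6, 17, 8, 2 and 6. With at least 20 counts over both ages, 4 family members could be compared from pnd7 to pnd14, of which Wfdc18, picked for its course, and Wfdc1 were at least 2-fold higher and none lower, where 10.7% and 14.3% of all genes passed upward and downward. From pnd28 to pnd56 the members themselves were the measured ones.

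Other protease inhibitors of epithelia did not share 1 course. Of 27 listed, 18 have a row, and 3 to 5 reached 20 counts in each comparison. Spint1, a membrane inhibitor of serine proteases, stayed level at 578.4, 583.9, 482.99, 436.4 and 439.6 CPM over the ages. Cstb, the gene of the intracellular inhibitor cystatin B, was at 157.9, 195.1, 169.5, 228.6 and 170.95 CPM. Timp3, an inhibitor of metalloproteinases, was at 314.1 CPM at pnd0 and 85.5 at pnd56, a log2 ratio of −1.88. Spink12, a Kazal-type inhibitor, was at 1.72, 0, 5.65, 800 and 2332 CPM, from 1 count at pnd0. From pnd0 to pnd56, 2 of 5 measured inhibitors, Spink12 and Timp1, passed 2-fold upward and Timp3 downward, where 10.3% and 34.9% of all genes did. Their median was 0.11 against −0.45 for all genes.

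Of the listed proteases, 5 of 8 measured passed 2-fold upward from pnd0 to pnd56 and 1 downward, with a median of 1.55, where 10.3% and 34.9% of all genes passed. Their summed share of counts was highest at pnd28, at 2.03%, against 0.131% at pnd0 and 0.365% at pnd56. Napsa, an aspartic protease, was at 2.85 and the lysosomal Ctsh at 1.04, while Htra1, a secreted serine protease, was at −1.26. Of 11 measured secretory and antimicrobial genes, 10 passed 2-fold upward and Ovgp1 downward, against the same 10.3% and 34.9% of all genes. Their median was 5.57 when a gene at 0 in 1 of the ages is set at 3 counts. The lists of inhibitors, proteases and secretory genes were drawn up with earlier results of these data known. A gene low at pnd0 can also enter through its pnd56 counts. These list counts are therefore a description and not an enrichment. The whole course of Wfdc18 differed from that of Ltf in the secretory list, which had 22.3, 31.4, 474.5, 2068 and 2882 CPM and no dip at pnd28.

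By their levels over the 10 runs, the genes most like Wfdc2 among 2005 searched were Fkbp10, Ccdc136, Siva1, Wnt7a, S100a6 and Meg3, with Pearson r from 0.96 to 0.93. Wnt7a, a Wnt ligand of the uterine epithelium, had 272.9, 289.2, 76.3, 176.6 and 73.3 CPM over the ages, with the same upturn at pnd28. The genes least like it were Ugt1a6a, Ugt1a10 and Ugt1a9, at r near −0.90, rows of 1 locus whose transcripts share their 3′ exons. The genes most like Wfdc18 were Cnp, Hist1h1c, Esr1, Rnf128, Baiap2 and Nr2f2, with r from 0.92 to 0.90. Esr1, the gene of oestrogen receptor alpha, had 17.2, 92.8, 468.9, 374.03 and 512.9 CPM. Fscn1, an actin-bundling protein gene, was least like it at r of −0.93. Runs of an age may not be independent, and with a pseudocount of 100 in place of 10, 2 of the 6 genes most like Wfdc18 stayed in its list, against 5 of 6 for Wfdc2.

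Over the cells of the age where each gene was highest at full depth, Wfdc18 at pnd14 had its highest r with Ltf, at 0.61. Cldn10, a claudin of tight junctions, followed at 0.39, then Bcam at 0.37, Ovgp1 at 0.35, the secreted chaperone Clu at 0.34 and Aldoc at 0.33, among 1508 genes over all cells of that age. For Wfdc2 at pnd0 no gene passed an r of 0.29, the value of Gps2. The cells of an age span 2 or 3 runs and differ in depth, and r in such sparse counts is given as a description.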

How the data were processed

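The deposited table holds whole-number counts per gene and cell, which the authors made from CEL-seq libraries, per the labels' protocols. The submitters' processing notes list TopHat, Cuffnorm and mm9 but give no role or version. Collapsing of molecular identifiers, and the rule that left 714 of 960 sorted cells, are not given in the sources used here. All 714 columns were used. No 2 columns were identical, and the highest correlation of log counts between cells was 0.585.

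The members, gene lists, Ovgp1 cut and tests were chosen with earlier results of these data known. Named genes were the members, genes of the lists and, for each member, the 6 most and 3 least like it over runs (at least 200 counts and 5% of cells) and the 6 most like it over cells of its highest age (at least 50 counts and 10% of cells).

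Counts were summed per age. Levels carry exact Poisson intervals, shares of cells exact Clopper-Pearson intervals, and ratios exact conditional binomial intervals. Differences of log2 ratios carry Wald intervals. A floor of 3 counts over an age stood in for 0. Reads without molecular identifiers are not independent molecules. The ratio intervals were tested on simulated Poisson counts alone. Those counts lack the spread between cells and runs seen here, so that test does not bear on it. Alternatives were median-of-ratios scaling, thinning to 1500 or 1000 counts, equal weight per cell, leaving out runs, marker cells or the highest cell, and other count minimums. Doublets were not called. Python 3.11.15, numpy 2.4.6 and scipy 1.17.1 were used.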

Additional observations from a re-analysis of the deposited data

How the results depend on the processing

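In no alternative run did a log2 ratio of either gene change direction. For ratios, their differences and shares of cells, 29 alternative values moved beyond the counting interval of the main value. For the 2 differences against pnd0, which are bounds, the lower Wald limit with 3 counts at pnd0 was used. For Wfdc2, thinning to 1500 counts gave −0.21 from pnd0 to pnd7, and median-of-ratios scaling gave −0.48 from pnd7 to pnd14 and −0.997 from pnd0 to pnd56. Leaving out cells with smooth muscle markers gave −0.41 from pnd7 to pnd14 and 0.20 from pnd14 to pnd28, where cells with a Krt18 count gave 0.61. Equal weight per cell gave −0.62 from pnd28 to pnd56. For Wfdc18, thinning gave bounds of 0.95 from pnd0 to pnd7, below 2-fold, and 5.38 from pnd0 to pnd56, and 3.98 from pnd7 to pnd14. Its bound from pnd0 to pnd7 was 2.55 without the highest cell. Without the pnd14 cells of 3 or more Ovgp1 counts its ratios were 2.23 and −1.09. Thinning gave differences of log2 ratios of 1.16, 4.53 and 3.98 for pnd0 to pnd7, pnd7 to pnd14 and pnd28 to pnd56, and Wfdc18 shares of 1.57% at pnd7 and 0% at pnd28. The cause was not tested, except that thinning leaves fewer counts and so lowers bounds.

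With single runs left out, Wfdc2 ranged from −0.38 to −0.13 for pnd7 over pnd0, −0.85 to −0.45 for pnd14 over pnd7, 0.34 to 0.74 for pnd28 over pnd14 and −1.31 to −1.05 for pnd56 over pnd0. Wfdc18 ranged from 2.02 to 3.13, 2.92 to 3.696, −2.55 to −1.77 and 5.08 to 5.12. The differences ranged from 2.19 to 3.41, 3.48 to 4.15, −2.89 to −2.22 and 6.17 to 6.39. The single runs of pnd28 and pnd56 could not be left out. Equal weight per cell gives no bound against 0 counts, and thinning left no difference of log2 ratios for pnd14 to pnd28.

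The share of genes past 2-fold follows the minimum count. Upward, for the 5 comparisons in order, it was 4.94%, 10.7%, 11.9%, 14.8% and 10.3% at 20 counts, 2.57%, 7.72%, 9.24%, 15.5% and 9.44% at 50 counts, and 12.7%, 18.9%, 19.04%, 19.1% and 13.3% at 4. Downward it was 7.61%, 14.3%, 24%, 16.5% and 34.9%, then 3.296%, 10.4%, 18.7%, 10.8% and 28.8%, and 15.97%, 21.6%, 32.8%, 29.8% and 45.7%. No paired analysis was possible because the labels give no replicate numbers that link cells across ages. At pnd28 Wfdc18 rests on 9 counts in 2 cells.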

Other observations

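Cells with no Wfdc2 count numbered 1 at pnd0, 0 at pnd7, 10 at pnd14, 1 at pnd28 and 7 at pnd56. The pnd0 cell had 3967 counts and 3 or more of Ovgp1. Of the 10 pnd14 cells, with a median depth of 1128 counts, 5 carried 5 or more smooth muscle counts, 2 had no Krt18 count and 2 had a Wfdc18 count. Of the 7 pnd56 cells, with depths from 1198 to 4509 counts, 1 carried smooth muscle counts, 2 had no Krt18 count and none had an Ltf count. At birth the 13 cells with a count of Upk3a, a uroplakin gene of the urothelium, had Wfdc2 at 8445 CPM [7499, 9477], against 11514 [11231, 11801] in the rest.

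At pnd14 the genes with the highest r with Wfdc2 over cells were the metallothioneins Mt2 and Mt1, at 0.55 and 0.47. At pnd28 they were the tight junction gene Cldn3 at 0.62 and Krt18 at 0.54, and at pnd56 Prap1, a secreted proline-rich protein gene, at 0.55 and Krt18 at 0.50. The r of Wfdc2 with Krt18 was 0.07 at pnd0, 0.10 at pnd7 and 0.10 at pnd14. These ages lie outside the rule for named genes, and the genes were named after their values were seen.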
